A study of Zea mays with 18 samples.

Results

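Metallothioneins are small, cysteine-rich proteins that bind copper, zinc and other metals through their thiol groups. In plants they are known for buffering metals and reactive oxygen species, and their transcripts are among the abundant ones of many tissues, including vascular and senescing tissue. Type 2 plant metallothioneins carry cysteine-rich ends joined by a linker with few cysteines.

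The 2 genes described here are Zm00001d011063, whose best protein match is a putative metallothionein family protein, and Zm00001d008620, whose best match is a metallothionein-like protein type 2. They are 2 of 34474 genes in a maize (Zea mays) stem expression table, and they were chosen by identifier, selected on their FPKM levels across the 9 groups of these same libraries. Their own values are therefore given as a description, with no test. Only 3 genes in the table have metallothionein in their match name, and the other one, Zm00001d039914 (metallothionein-like protein 2A), was tested. The names are the deposited best matches, with no check of the sequences. Closely similar family members can share reads, so the division of signal among these genes is uncertain.

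The stems came from 3 hybrids of unlike plant height, all with Dan 598 as a parent. The low hybrid was Dan 598xFAPW, the middle hybrid Dan 598xCML444 and the high hybrid Dan 598xES40. Each was sampled at jointing (early stem elongation), big flare (a late whorl stage) and tasseling (tassel emergence), with 2 libraries in each of the 9 groups. The labels name no applied agent. Each height class is 1 hybrid, so height and genotype cannot be told apart. Whether both libraries of a group stem from different plants is not stated, so p-values measure the spread between libraries, which may be technical.

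Levels are FPKM, fragments scaled by transcript length and by library size, which allows an approximate comparison between genes. The accuracy of this scaling was not checked for the metallothionein genes. The FPKM sum of a library ran from 672089 to 764146, and 20758 to 22708 genes stood at 1 FPKM or more. Absolute depth is unknown; relative depth, estimated from the steps of low values, ran from 0.427 in high big flare replicate 1 to 1.0 in low tasseling replicate 2. Genes matched to secondary wall and vascular functions, the markers of stem, summed to 588 to 5107 FPKM per library, and all 5 KNOX meristem genes were detected. The leaf blade markers summed to 255 to 2517 FPKM, nearly all from 2 Rubisco small subunit genes, while phosphoenolpyruvate carboxylase 1 did not exceed 2.05 FPKM. The tassel and pollen markers summed to 1115 to 3542 FPKM, mostly from profilin-5 and profilin-4, and the leaf senescence markers to 131 to 402 FPKM. In these lists 11 of 25 and 14 of 14 genes stood at 1 FPKM or more in some library.

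Over the 18 libraries, Zm00001d011063 had a mean of 2722 FPKM, rank 6 among all genes, and Zm00001d008620 had a mean of 2195 FPKM, rank 10. The genes above both included a glycine-rich RNA-binding protein 2 (Zm00001d031168, 18512 FPKM), a catechol O-methyltransferase (Zm00001d049541, 3101 FPKM) and an alpha tubulin (Zm00001d013367, 2882 FPKM). The 2 metallothionein genes together held 0.169% to 1.83% of a library's FPKM sum, with a median of 0.486%. Zm00001d011063 was among the top 10 genes in 7 libraries and fell to rank 678 in another, whereas Zm00001d008620 stayed between rank 3 and rank 169. The first gene spanned 40.9-fold between its lowest and highest library and the second 11.5-fold.

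**Figure D1:**
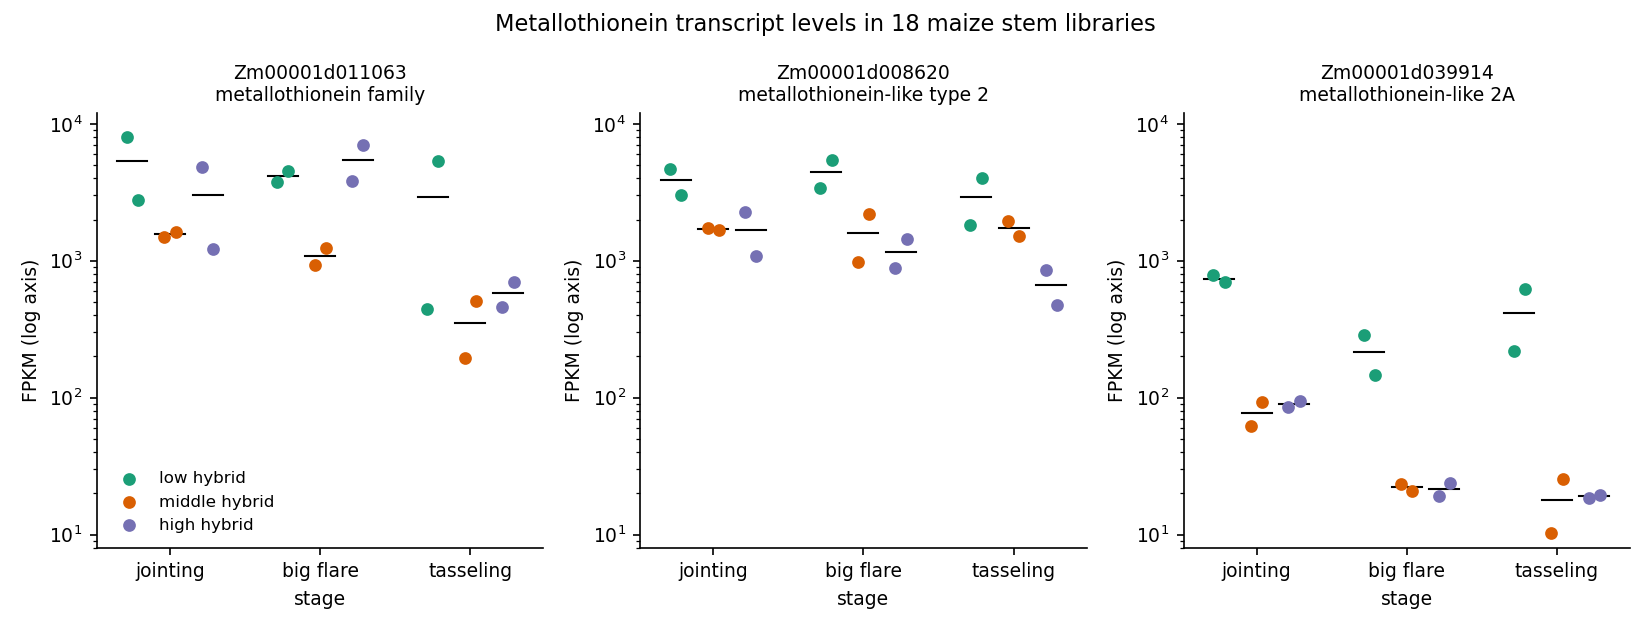
FPKM (log axis, the same in each panel) of the 2 abundant metallothionein genes and of Zm00001d039914 by stage, with 1 point per library, the hybrids in separate colours and a black line at the mean of each group. Zm00001d011063 runs from 196 to 8014 FPKM and Zm00001d008620 from 475 to 5479.6 FPKM, and the low hybrid stands apart from both others in Zm00001d039914.

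Zm00001d011063 was high in the low hybrid at jointing, with 8014 and 2759.9 FPKM in replicates 1 and 2, and at big flare, with 3745 and 4560.4 FPKM. Its low tasseling libraries held 447.8 and 5385 FPKM, the widest gap between replicates of any group for this gene (12.0-fold). In the low hybrid, the libraries of all 3 stages therefore overlapped.

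In the middle hybrid, Zm00001d011063 stood at 1490.3 and 1625 FPKM at jointing, 925.4 and 1231 FPKM at big flare, and 196.1 and 509.98 FPKM at tasseling. These groups followed each other downward without overlap, by 1.44-fold from jointing to big flare and by 3.05-fold from big flare to tasseling. Among all tested genes, 16.9% and 27.4% fell without overlap at the first and at the later of these steps in this hybrid, counted for each step alone.

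In the high hybrid, Zm00001d011063 stood at 4856 and 1217 FPKM at jointing, 3817 and 7059.7 FPKM at big flare, and 457.3 and 703.6 FPKM at tasseling. The tasseling libraries lay below all other libraries of this hybrid, with a mean 9.37-fold under that of big flare and 5.23-fold under that of jointing. Of all tested genes, 32.4% and 24.6% fell without overlap in these comparisons. Jointing and big flare overlapped.

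Ordered by group mean, Zm00001d011063 went from high big flare (5439 FPKM) through low jointing (5387), low big flare (4153), high jointing (3036), low tasseling (2916), middle jointing (1558), middle big flare (1078) and high tasseling (580.4) to middle tasseling (353). The ends of this order differed 15.4-fold. Of the 8 neighbouring pairs, 6 overlapped in their library values. The exceptions were middle jointing against middle big flare, and middle big flare against high tasseling.

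Zm00001d008620 was high in the low hybrid at every stage, with 4707 and 3016 FPKM at jointing, 3397 and 5479.6 FPKM at big flare, and 1822 and 4022 FPKM at tasseling. The middle hybrid held 1742 and 1685 FPKM at jointing, 978.4 and 2208 FPKM at big flare, and 1941 and 1512 FPKM at tasseling. Neither hybrid had stages that separated, and the middle hybrid's group means lay between 1593 and 1726 FPKM.

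The high hybrid had 2269 and 1074 FPKM of Zm00001d008620 at jointing, 880.9 and 1446 FPKM at big flare, and 848.9 and 474.5 FPKM at tasseling. Its tasseling libraries lay below those of both earlier stages, 1.76-fold under big flare and 2.53-fold under jointing. These are the comparisons in which 32.4% and 24.6% of all tested genes fell without overlap.

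The order of group means for Zm00001d008620 was low big flare (4438 FPKM), low jointing (3861), low tasseling (2922), middle tasseling (1726), middle jointing (1713), high jointing (1672), middle big flare (1593), high big flare (1164) and high tasseling (661.7). The ends differed 6.71-fold, less than for the other gene. Neighbours overlapped in 7 of 8 pairs, all but high big flare against high tasseling. The 3 low groups came first, then mostly middle groups, with the high hybrid at the bottom.

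The hybrids differed in unlike ways for the 2 genes. Zm00001d008620 averaged 3741 ± 1293 FPKM (SD, n = 6) in the low hybrid, 1678 ± 417 FPKM in the middle hybrid and 1166 ± 627 FPKM in the high hybrid. On the log2(FPKM + 1) scale the high hybrid was lower than the low hybrid by a difference of -1.76 ± 0.34 (SE from the gene's own spread, 9 residual degrees of freedom), and 5 of its 6 libraries lay below all 6 low libraries. The middle hybrid differed from the low one by -1.12 ± 0.34, with 4 of 6 libraries below all low ones, and the high from the middle one by -0.65 ± 0.34. The counts of 5 and 4 libraries have no share over all genes beside them and are not read as a result. All 6 libraries lay below the low ones in 2.74% (high) and 2.19% (middle) of all tested genes.

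Zm00001d011063 averaged 4152 ± 2547 FPKM in the low hybrid, 996 ± 561 FPKM in the middle hybrid and 3018 ± 2665 FPKM in the high hybrid (SD, n = 6). Here the middle hybrid had the lowest mean, with a log2 difference of -1.95 ± 0.65 from the low hybrid, and the high hybrid differed from the middle one by 1.25 ± 0.65. The high and low hybrids differed by -0.69 ± 0.65 on that scale. That last value rested on low tasseling: it was -1.29 without replicate 1 and -0.094 without replicate 2. The middle against low difference was -2.54 and -1.35 in the same order.

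Within stages, the hybrid difference in Zm00001d008620 held at each stage for high against low. The high libraries lay below the low ones by 2.31-fold at jointing, 3.81-fold at big flare and 4.42-fold at tasseling, where 14.3%, 19.1% and 35.3% of all tested genes did the same. The middle libraries lay below the low ones at jointing (2.25-fold, 16.3% of genes) and at big flare (2.79-fold, 18.9% of genes) and overlapped them at tasseling. At tasseling the high libraries also lay below the middle ones, by 2.61-fold (21.5% of genes).

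For Zm00001d011063, the middle libraries lay below the low ones at jointing by 3.46-fold and at big flare by 3.85-fold. Of all tested genes, 16.3% and 18.9% did the same. The high libraries lay above the middle ones at big flare by 5.04-fold, as did 17.9% of all tested genes. High and low overlapped at every stage, and at tasseling each pair of hybrids overlapped.

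Marker sums beside these hybrid differences were not equal. The secondary wall and vascular markers had a median sum of 972 FPKM in the low hybrid, 1429.7 FPKM in the middle hybrid and 2039 FPKM in the high hybrid, with overlapping ranges, and the leaf blade markers 551, 1042 and 904 FPKM. The KNOX sums had medians of 282, 279 and 271 FPKM. Their part in the result was not tested. In bulk stem tissue, fewer cells of a type and less RNA per cell cannot be told apart.

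By stage, Zm00001d011063 averaged 3327 ± 2659 FPKM at jointing, 3557 ± 2268 FPKM at big flare and 1283 ± 2016 FPKM at tasseling (SD, n = 6). Its log2 difference was -2.12 ± 0.65 from big flare to tasseling and -1.997 ± 0.65 from jointing to tasseling. Of the 6 tasseling libraries, 5 lay below every jointing and every big flare library, the exception being low tasseling replicate 2. Without that library the 2 differences were -2.72 and -2.59, and without low tasseling replicate 1 they were -1.52 and -1.40. The count of 5 libraries has no share over all genes beside it and is not read as a result. By limma, 19.2% and 11.1% of all tested genes were called lower at tasseling against big flare and against jointing. Big flare differed from jointing by 0.12 ± 0.65, a value that was below 0 without low jointing replicate 2 (-0.13), high jointing replicate 2 (-0.21) or high big flare replicate 2 (-0.026).

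Zm00001d008620 averaged 2416 ± 1298 FPKM at jointing, 2398 ± 1775 FPKM at big flare and 1770.1 ± 1241 FPKM at tasseling. Its log2 stage differences were -0.16 ± 0.34 for big flare against jointing, -0.43 ± 0.34 for tasseling against big flare and -0.59 ± 0.34 for tasseling against jointing. The stages overlapped in each comparison. The 3 stage comparisons share libraries, as do the 3 hybrid comparisons.

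The tasseling libraries also differed in marker sums. The KNOX genes summed to 92.7 to 244 FPKM at tasseling, against 237 to 312 FPKM at jointing and 311 to 427 FPKM at big flare. The sum of the tassel and pollen list came mostly from profilin-5 and profilin-4. It was 2149.8 to 3542 FPKM at tasseling, against 1291 to 1917 FPKM and 1115 to 1679.5 FPKM at the earlier stages. No exopolygalacturonase in this list exceeded 8.54 FPKM. Its pollen allergen matches Zea m 1a and Zea m 13 did not exceed 0.76 and 0.33 FPKM, while Car b 1 reached 158 FPKM. Another profilin of the list (Zm00001d043523) ran from 4.43 to 693 FPKM over the 18 libraries. Whether the sum reflects tassel or pollen tissue was not tested. The secondary wall and vascular markers had a median sum of 2418 FPKM at jointing, 1232 FPKM at big flare and 1170.3 FPKM at tasseling, and the leaf blade markers 1470.3, 493 and 876 FPKM. Their part in the result was not tested.

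**Figure D2:**
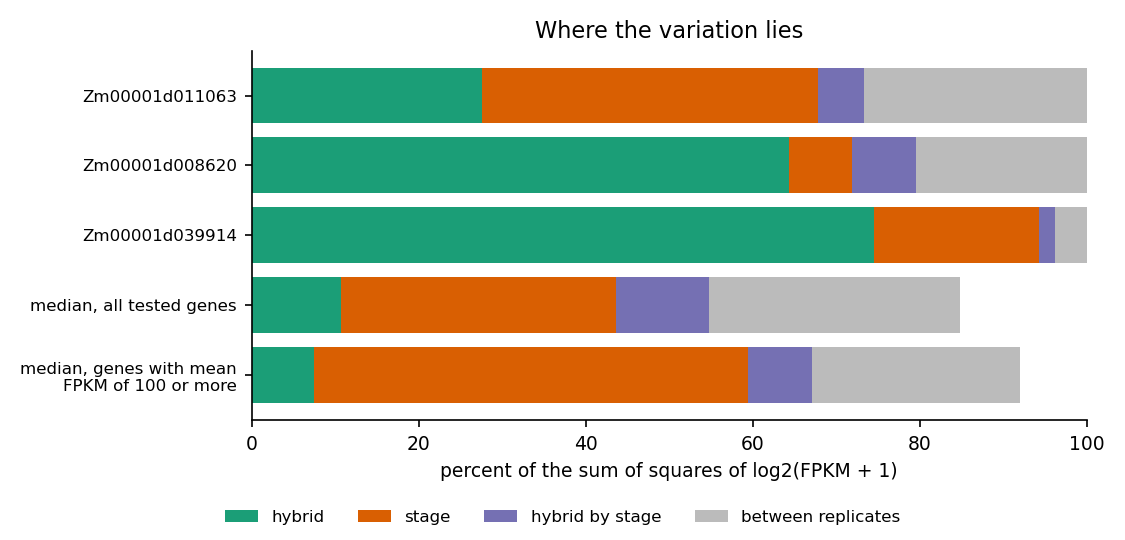
Share (percent) of the sum of squares of log2(FPKM + 1) over 18 libraries that lay between hybrids, between stages, in the hybrid by stage pattern and between replicates, for 3 metallothionein genes and as medians over all tested genes and over genes with a mean of 100 FPKM or more. The hybrid share is 64.3% for Zm00001d008620 and 27.6% for Zm00001d011063; the medians are taken share by share and need not add to the whole.

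The variation of log2(FPKM + 1) over the 18 libraries was split into its parts. In Zm00001d008620, 64.3% of it lay between hybrids, 7.52% between stages, 7.74% in the hybrid by stage pattern and 20.4% between replicates. In Zm00001d011063, 27.6% lay between hybrids, 40.2% between stages, 5.57% in the combined pattern and 26.6% between replicates. The median gene with a mean of 100 FPKM or more (1237 genes) had 7.51% between hybrids and 51.9% between stages. Both metallothionein genes thus had a larger hybrid share than that median, and Zm00001d008620 the larger one.

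The ratio of Zm00001d011063 to Zm00001d008620 within a library ran from 0.101 to 4.88, and it was above 1 in 8 of 18 libraries. It was 4.33 and 4.88 in high big flare, the highest values, and 0.101 and 0.337 in middle tasseling. The middle hybrid had no library above 1, the low hybrid 3 of 6 and the high hybrid 5 of 6.

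As a mean of log2 ratios, the high hybrid stood at 0.89 ± 1.21, the low hybrid at -0.18 ± 0.98 and the middle hybrid at -1.01 ± 1.27 (SD, n = 6). By stage the mean log2 ratio was 0.27 ± 0.54 at jointing, 0.56 ± 1.31 at big flare and -1.13 ± 1.49 at tasseling. In low tasseling the ratio was 0.246 in replicate 1 and 1.34 in replicate 2, on opposite sides of 1. Without replicate 1 the mean log2 ratio of the low hybrid was 0.19.

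**Figure D3:**
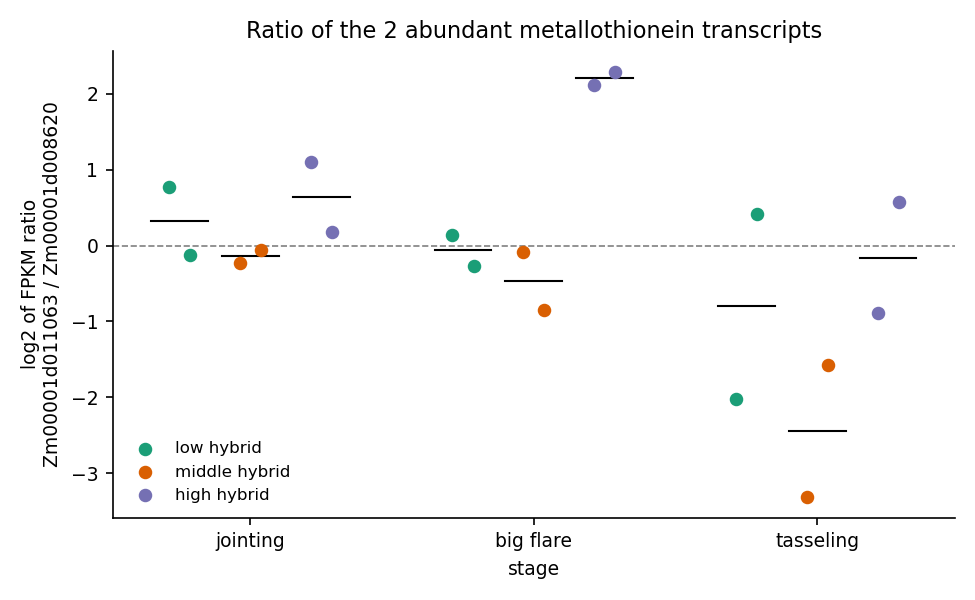
Log2 of the FPKM ratio of Zm00001d011063 to Zm00001d008620 within each of the 18 libraries by stage, with 1 point per library, a black line at each group mean and a dashed line at equal levels. Both high big flare libraries lie above all others, at 2.12 and 2.29, and every middle library lies below 0.

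Over all 18 libraries the log2 levels of the 2 genes had a Pearson correlation of 0.52 and a Spearman correlation of 0.51, as a description of libraries that share hybrids and stages. Without middle tasseling replicate 1 and low jointing replicate 1, the Pearson correlation was 0.55. It was 0.91 in the 6 low libraries, 0.71 in the 6 high ones and -0.079 in the 6 middle ones. By stage it was 0.89 at jointing, 0.28 at big flare and 0.44 at tasseling.

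Replicates of the same group were far apart for Zm00001d011063. The mean absolute log2 gap over the 9 groups was 1.20, larger than in 95.3% of all tested genes and in 90.6% of genes with a mean of 100 FPKM or more. For Zm00001d008620 it was 0.74, larger than in 80.7% and 75.8% of these genes, and the median over all tested genes was 0.47. The widest replicate folds of Zm00001d008620 were 2.26 in middle big flare and 2.21 in low tasseling, whereas those of Zm00001d011063 were 12.0 in low tasseling, 3.99 in high jointing and 2.90 in low jointing.

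The low tasseling gap of Zm00001d011063, 3.59 on the log2 scale, was matched or exceeded in 80 of 15984 genes with a mean of at least 5 FPKM (0.501%). Among the 1237 genes with a mean of 100 FPKM or more it was reached in 12. Low tasseling was taken because it held this gene's widest gap, and the other genes were counted in that group alone. These counts are therefore a description and do not measure how rare such a gap is. Both low tasseling libraries were otherwise each other's nearest library, with a correlation of 0.941 across genes, which are not independent replicates. Their marker sums were close: 588 and 643 FPKM for secondary wall, 224 and 244 FPKM for KNOX, 626 and 611 FPKM for leaf blade, 2192 and 2149.8 FPKM for tassel and pollen, and 275 and 297 FPKM for senescence. Relative depth was 0.626 in replicate 1 and 1.0 in replicate 2. The cause of the gap was not tested.

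In high jointing, where replicate 1 held 3.99 times the Zm00001d011063 level of replicate 2, the marker sums were unequal. Leaf blade markers summed to 2131 and 982 FPKM and senescence markers to 402 and 131 FPKM, while secondary wall markers summed to 2432 and 2684 FPKM. Relative depth was 0.963 and 0.524. In low jointing, where replicate 1 held 2.90 times the level of replicate 2, leaf blade markers ran the other way, at 490.2 and 2517 FPKM. Secondary wall markers there summed to 1239.5 and 3734 FPKM and senescence markers to 173 and 178 FPKM. The part of these markers in the result was not tested.

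**Figure D4:**
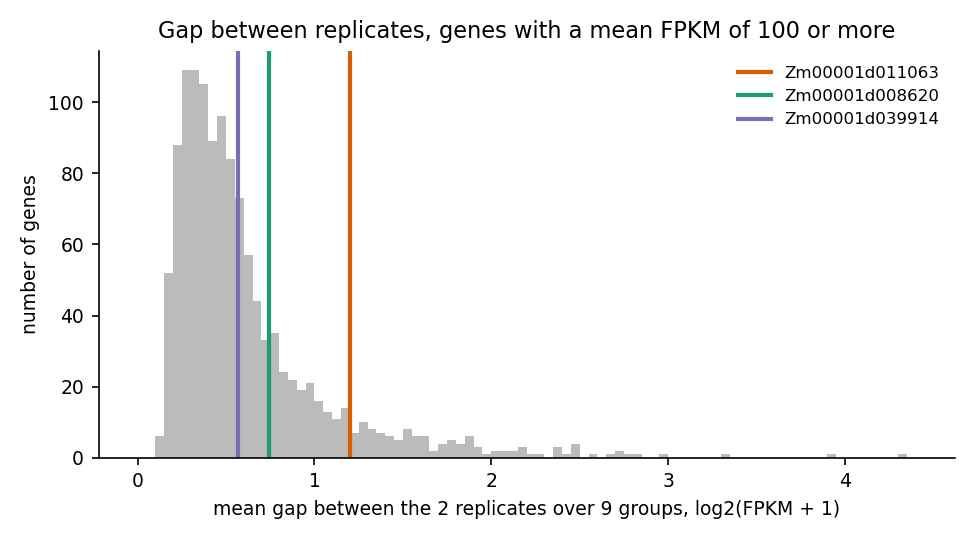
Number of genes (of the 1237 with a mean of 100 FPKM or more) by the mean absolute gap between the 2 libraries of a group over 9 groups, in log2(FPKM + 1), with a vertical line for each metallothionein gene. The lines stand at 1.20 for Zm00001d011063, 0.74 for Zm00001d008620 and 0.57 for Zm00001d039914.

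Zm00001d039914, the remaining gene with a metallothionein name, was less abundant, with a mean of 180.3 FPKM over the 18 libraries (rank 591). It was higher in the low hybrid than in both others at every stage. The low hybrid held 781.6 and 697.7 FPKM at jointing, 287 and 145.7 FPKM at big flare, and 218.3 and 619.2 FPKM at tasseling. All 6 of these libraries lay above every high library (18.6 to 94.6 FPKM) and every middle library (10.3 to 92.7 FPKM).

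In the high hybrid, Zm00001d039914 stood at 85.4 and 94.6 FPKM at jointing, 19.2 and 23.6 FPKM at big flare, and 18.6 and 19.6 FPKM at tasseling. The middle hybrid held 62.5 and 92.7 FPKM, 23.6 and 20.9 FPKM, and 10.3 and 25.4 FPKM at the same stages. These hybrids overlapped at every stage. In both of them, as in the low hybrid, jointing lay above the later stages. Among all tested genes, big flare lay below jointing in 16.9% (middle) and 19.6% (high), and tasseling below jointing in 22.8% and 24.6%. The low hybrid has no such share beside it, and its order is given only as a description.

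In a test with limma and Benjamini-Hochberg adjustment over 26792 genes, Zm00001d039914 was lower in high than in low by a log2 change of -3.48 ± 0.28 (adjusted p = 2.83e-06). It averaged 43.5 ± 36.2 FPKM in the high and 458 ± 273 FPKM in the low hybrid (SD, n = 6 each). Of all tested genes, 5.63% were called lower in this comparison and 2.74% were lower without overlap. It was lower in middle (39.2 ± 31.6 FPKM) than in low by -3.61 ± 0.28 (limma adjusted p = 2.43e-06), where 4.31% of genes were called lower and 2.19% did not overlap. High and middle differed by 0.13 ± 0.28, which was not called (limma adjusted p = 0.912).

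Zm00001d039914 also fell after jointing. It averaged 302 ± 340 FPKM at jointing, 86.7 ± 110 FPKM at big flare and 152 ± 243 FPKM at tasseling (SD, n = 6). The log2 change was -1.87 ± 0.28 at big flare against jointing (limma adjusted p = 0.00239), in a comparison where 5.06% of genes were called lower. It was -1.78 ± 0.28 at tasseling against jointing (limma adjusted p = 0.000811), where 11.1% of genes were called lower. Tasseling against big flare gave 0.088 ± 0.28 and was not called (limma adjusted p = 0.831). Beside these changes, the secondary wall and leaf blade sums were also higher at jointing (medians 2418 and 1470.3 FPKM) than at big flare (1232 and 493 FPKM) or tasseling (1170.3 and 876 FPKM), and their part in the result was not tested. None of the 4 calls of Zm00001d039914 was lost when any single library was left out.

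Over 18 libraries, the correlation of Zm00001d039914 was 0.72 with Zm00001d008620 and 0.55 with Zm00001d011063 (0.76 and 0.37 without the 2 libraries farthest from each member's median). Within the middle hybrid the order was the other way, -0.061 with Zm00001d008620 and 0.82 with Zm00001d011063, as it was within the low hybrid (0.097 and 0.43) and at tasseling (0.67 and 0.78). Zm00001d039914 had 74.6% of its variation between hybrids. Among 15984 genes ordered by likeness to Zm00001d008620 it took rank 136, and for Zm00001d011063 rank 2067.

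By Pearson correlation of log2(FPKM + 1) over the 18 libraries, the 5 genes most like Zm00001d011063 were a NSP-INTERACTING KINASE 1-like protein (Zm00001d045729, 0.945), a stress responsive protein (Zm00001d022516, 0.926), a polcalcin Jun o 2 match (Zm00001d014559, 0.898), ATP-sulfurylase 3 (Zm00001d013296, 0.893) and nicotianamine synthase 3 (Zm00001d022557, 0.888). ATP-sulfurylase activates sulfate for the assimilation pathway that leads to cysteine, and nicotianamine synthase makes nicotianamine, a chelator of iron, copper and zinc. Over 9 group means instead of 18 libraries, 2 of these 5 stayed among the 20 most alike, the kinase (rank 1) and the stress responsive protein (rank 7). ATP-sulfurylase 3 fell to rank 96, the polcalcin match to rank 121 and nicotianamine synthase 3 to rank 150. By Spearman correlation nicotianamine synthase 3 took rank 52.

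The gap between the low tasseling libraries ran in the same direction in all 5. Nicotianamine synthase 3 held 18.6 FPKM in replicate 1 and 182 FPKM in replicate 2, and the stress responsive protein 101 and 459.97 FPKM. The polcalcin match held 11.7 and 97.7 FPKM, ATP-sulfurylase 3 20.9 and 63.7 FPKM, and the kinase 17.6 and 55.8 FPKM. Since the likeness was computed on these libraries too, this is part of it.

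Over all libraries nicotianamine synthase 3 ran from 4.80 FPKM in middle tasseling to 387 FPKM in low jointing, and ATP-sulfurylase 3 from 9.72 FPKM in middle tasseling to 230.2 FPKM in high big flare. Zm00001d011063 itself was lowest in middle tasseling and highest in low jointing by single library and in high big flare by group mean. Zm00001d008620 took rank 2426 of the 15984 genes by this measure, at 0.52.

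Among genes with an informative match name, those most like Zm00001d008620 were a KH domain-containing protein (Zm00001d034772, 0.863), an ATRX-like transcriptional regulator (Zm00001d019090, 0.860), a chloride intracellular channel 6 match (Zm00001d035595, 0.838), a PHD finger protein (Zm00001d012232, 0.826) and a 40S ribosomal protein S4-like gene (Zm00001d030106, 0.809). They took ranks 2, 3, 6, 9 and 15 among all 15984 genes. The KH domain gene ran from 14.6 to 23.7 FPKM in the low hybrid, 4.26 to 12.4 FPKM in the middle hybrid and 0.42 to 2.60 FPKM in the high hybrid. All 5 were far less abundant than Zm00001d008620, with mean levels of 8.28 to 56.5 FPKM. Over group means 2 of the 5 stayed among the 20 most alike, and 3 by Spearman correlation.

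Other genes of metal handling were taken as a list of transporters, chelator enzymes, ferritins and metal chaperones by match name, 73 in the table, of which 53 were tested. Between hybrids, few of them were called each way. In high against low, 3 of 53 were called higher and 1 lower by limma, against 3.58% and 5.63% of all genes (11 had an unadjusted p under 0.05). In middle against low, 0 were higher and 1 lower, against 2.62% and 4.31% (8 had an unadjusted p under 0.05), and 2 were called without low jointing 2, low tasseling 1, middle jointing 2 or either middle tasseling library. In high against middle, 3 (5.66%) were higher and 0 lower, against 2.37% and 2.07% of all genes (13 had an unadjusted p under 0.05). The counts at an unadjusted p have no share over all genes beside them and are not read as a result.

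The genes of this list named between hybrids were both lower in comparison with the low hybrid. Those called higher in the high hybrid, 3 against low and 3 against middle, had means under the 5 FPKM needed for naming. Zm00001d031764, matched to the zinc transporter SLC39A7, was lower in middle (6.95 ± 2.78 FPKM) than in low (16.2 ± 4.59 FPKM) by a log2 change of -1.13 ± 0.21 (limma adjusted p = 0.00414). Zm00001d047207, matched to the copper-transporting ATPase PAA1 that moves copper into plastids in Arabidopsis, was lower in high (2.38 ± 1.67 FPKM) than in low (6.84 ± 2.37 FPKM) by -1.32 ± 0.33 (limma adjusted p = 0.0242). That call depended on 6 single libraries: it was lost without high tasseling 2, either high big flare library, low tasseling 2, low big flare 1 or low jointing 1 (adjusted p 0.0523 to 0.0787), and in a fit of the compared libraries alone (0.0886).

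From jointing to big flare, 11 of the 53 metal genes rose and 2 fell, against 7.29% and 5.06% of all genes. The count of 13 was 5 without low big flare replicate 2, middle jointing replicate 2 or high big flare replicate 2, 6 without middle big flare replicate 1 and 8 without high jointing replicate 2. Zinc transporter 4-like (Zm00001d049375) rose from 32 ± 22.3 to 89.6 ± 13 FPKM, a log2 change of 1.65 ± 0.34 (limma adjusted p = 0.0107). The iron store ferritin1 (Zm00001d052316) fell from 125 ± 54.9 to 51.6 ± 15.7 FPKM, a log2 change of -1.22 ± 0.23 (limma adjusted p = 0.00691).

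Nicotianamine aminotransferase 1 (Zm00001d016441), an enzyme of phytosiderophore synthesis in grasses, rose by a log2 change of 1.91 ± 0.50 at this step (limma adjusted p = 0.0283). Its call was lost without any 1 of low jointing 2, low big flare 2, either middle jointing library, high jointing 2 or either high big flare library (adjusted p 0.0562 to 0.0869), and in a fit of the compared libraries alone (0.0749). A putative ATP dependent copper transporter (Zm00001d002705) rose by 1.85 ± 0.44 (limma adjusted p = 0.0186), a call lost without any 1 of low big flare 2, middle jointing 2, middle big flare 1, high jointing 2 or high big flare 2 (adjusted p 0.0528 to 0.0593).

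From big flare to tasseling, where Zm00001d011063 was lower, 8 of the 53 metal genes rose and 23 fell, against 22.4% and 19.2% of all genes. Their median log2 change was -0.45, beside 0.012 over all tested genes. Yellow stripe-like transporter 12 (Zm00001d025887), of a family that moves metal-nicotianamine complexes, fell from 47.1 ± 10 to 4.61 ± 2.47 FPKM, a log2 change of -3.17 ± 0.23 (limma adjusted p = 8.54e-06). The copper transporter Zm00001d002705 fell by 2.83 on the log2 scale (limma adjusted p = 0.000333), and the isoprenylated metal-binding protein Zm00001d052760 by 2.52 (limma adjusted p = 0.00416).

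Of the genes that rose at tasseling against big flare, the ZTP29-like zinc transporter Zm00001d013127 went from 0.18 ± 0.20 to 12 ± 5.91 FPKM, a log2 change of 3.35 ± 0.35 (limma adjusted p = 3.87e-05). Ferritin1 rose from 51.6 to 114 FPKM, by 1.13 ± 0.23 (limma adjusted p = 0.00191). The isoprenylated metal-binding protein Zm00001d051472 rose by 1.97 ± 0.53 (limma adjusted p = 0.0104). With 10 as pseudocount it was not called.

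Against jointing, 3 of the 53 metal genes were higher at tasseling and 10 lower, beside 18.8% and 11.1% of all genes, and their median log2 change was -0.24, beside 0.084. Nicotianamine synthase 3 had the largest fall named by the rule, from 212 ± 104 to 40.3 ± 69.4 FPKM, a log2 change of -3.35 ± 0.50 (limma adjusted p = 0.000664). Its tasseling mean rested on low tasseling replicate 2 (182 FPKM): the other 5 libraries held 4.80 to 18.6 FPKM with a mean of 12 ± 5.36 FPKM, and without replicate 2 the log2 change was -3.89 (limma adjusted p = 0.000309). Yellow stripe-like transporter 12 had a log2 change of -1.73 (limma adjusted p = 0.000322) and Zm00001d052760 one of -2.197 (limma adjusted p = 0.0137, not called with 10 as pseudocount). Zm00001d051472 rose by 2.96 ± 0.53 (limma adjusted p = 0.00178) and Zm00001d013127 by 2.86 ± 0.35 (limma adjusted p = 0.00023). A second ZTP29 match, Zm00001d053665, rose by 0.65 ± 0.19 (limma adjusted p = 0.023), a call lost without any 1 of low jointing 2, low tasseling 1, middle jointing 2, middle tasseling 2, high jointing 1 or high tasseling 2 (adjusted p 0.0501 to 0.0662).

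**Figure D5:**
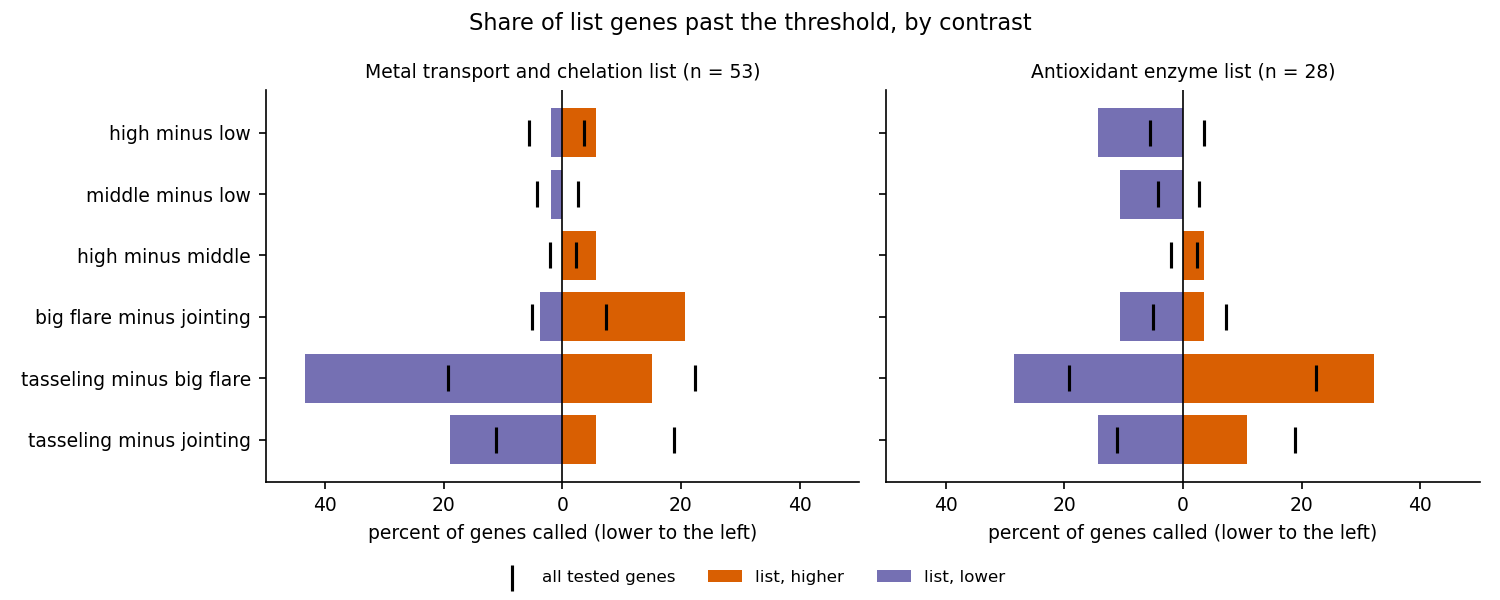
Percent of tested genes called higher (bars to the right) or lower (bars to the left) by limma at an adjusted p under 0.05 in each of 6 comparisons, for the metal transport and chelation list (53 genes) and the antioxidant enzyme list (28 genes), with black ticks for all 26792 tested genes. At tasseling against big flare 23 of 53 metal genes are lower, beside 19.2% of all genes.

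Antioxidant enzymes remove reactive oxygen species, which metallothioneins can also scavenge. Among 33 such genes, 28 were tested. In high against low 0 were higher and 4 lower by limma, and in middle against low 0 were higher and 3 lower; 9 and 7 had an unadjusted p under 0.05. In high against middle 1 was higher and 0 lower (3 with an unadjusted p under 0.05), and 2 were called without either low tasseling library or high jointing replicate 1. Of all tested genes, 3.58% were called higher and 5.63% lower in high against low. The shares were 2.62% and 4.31% in middle against low, and 2.37% and 2.07% in high against middle. Here too the counts at an unadjusted p have no such share beside them and are not read as a result.

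Cytosolic ascorbate peroxidase APx2 (Zm00001d007569) was nearly at 0 in the middle hybrid (0.158 ± 0.388 FPKM), against 30.8 ± 14 FPKM in the low and 43.7 ± 14.4 FPKM in the high hybrid. Its log2 change was -4.71 ± 0.24 for middle against low (limma adjusted p = 6.85e-08) and 5.26 ± 0.24 for high against middle (limma adjusted p = 7.88e-08). A chloroplastic iron superoxide dismutase (Zm00001d025106) was lower in high (0.045 ± 0.11 FPKM) than in low (6.28 ± 4.37 FPKM), by -2.64 ± 0.48 (limma adjusted p = 0.00333). Its call in middle against low (limma adjusted p = 0.0397) was lost without any 1 of 15 libraries and with the replicate block. A mitochondrial superoxide dismutase (Zm00001d009990) was called lower in high against low (limma adjusted p = 0.04). That call was lost without any 1 of 12 libraries and with the replicate block.

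Across stages, 1 of the 28 antioxidant genes rose and 3 fell from jointing to big flare, against 7.29% and 5.06% of all tested genes. Without low big flare replicate 1, 7 were called. From big flare to tasseling 9 (32.1%) rose and 8 (28.6%) fell, against 22.4% and 19.2% of all tested genes. Against jointing 3 (10.7%) were higher and 4 (14.3%) lower at tasseling, beside 18.8% and 11.1% of all tested genes. Peroxisomal ascorbate peroxidase APx3 (Zm00001d025047) rose from 0.662 ± 0.86 FPKM at big flare to 47.1 ± 21.2 FPKM at tasseling, a log2 change of 4.90 ± 0.65 (limma adjusted p = 0.000135). Catalase isozyme 3 (Zm00001d054044) fell at the same step from 440.1 ± 111 to 172 ± 84 FPKM, by -1.46 ± 0.27 (limma adjusted p = 0.00117).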

How the data were processed

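The authors deposited FPKM values per gene for 18 libraries of poly-A stem RNA sequenced as paired ends. Per the submitters' processing notes, Cufflinks 2.2.1 with Cuffdiff, DESeq 1.28.0 and TopHat2 were used on build B73 RefGen_v4; the role of each tool is not stated there. B73 is not among the named parents of the hybrids, and the effect of this on the hybrid differences was not tested. FPKM divides by library totals, so abundant genes shift all others. The members and lists were chosen with earlier results of these data known. Values on the log2(FPKM + 1) scale, computed from the deposited FPKM, were fitted with limma 3.58.1 (R 4.3.3), with 9 group means, 9 residual degrees of freedom and a mean-variance trend. The 26792 genes at 1 FPKM or more in at least 2 libraries were tested and 7682 were not; adjusted p-values are Benjamini-Hochberg, two-sided, threshold 0.05. The pseudocount of 1 understates changes of low genes. List genes were named by a rule: the 3 largest changes each way per comparison, past the threshold, at a mean of 5 FPKM or more on the higher side; for antioxidant genes a few of these are printed. The fit was tested on simulated data. A reference table of another assembly matched 0 of the 3 metallothionein genes, so no coordinates or sequences are given.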

Additional observations from a re-analysis of the deposited data

How the results depend on the processing

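All 60 alternative values of the 12 differences between hybrids or stages of the 2 genes stayed within 1 SD between replicates. The 216 values with 1 library left out could not pass that SD, because the gap between the replicates is itself part of it. They are therefore no check, and high against low in Zm00001d011063 ran from -1.29 to -0.094 among them. The sign changed in 1 of the 60 and in 5 of the 216, each in big flare against jointing. Of 51 other alternative group levels none moved by more than that SD, while middle jointing (main values 1558 and 1713 FPKM) moved to 1661 FPKM for Zm00001d011063 and 1818 FPKM for Zm00001d008620 with median-of-ratios scaling, and to 1793 FPKM for the latter with the 2 genes taken out of the total. Of the 5 alike genes named for each, 2 stayed among the 20 most alike over 9 group means, and 3 by Spearman correlation for Zm00001d008620.

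The calls of Zm00001d039914 held under every alternative run. Its uncalled values reversed with 1 library left out: high against middle ran from -0.071 to 0.34, and tasseling against big flare from -0.16 to 0.34 (-0.074 without low big flare 2 and -0.12 without middle tasseling 2). With a filter of 5 FPKM the metal list had 2 calls in high against low and 1 in high against middle, and the antioxidant list 1 in middle against low. The metal list had 2 calls in middle against low with a pseudocount of 10, with only the libraries compared, and with the replicate block. With 1 library left out, the metal list had 1 to 2 calls in middle against low and 5 to 16 in big flare against jointing, and the antioxidant list 1 to 2 in high against middle and 3 to 7 in big flare against jointing.

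Over 36 pairs of groups the correlation of same-numbered replicate deviations ran from -0.43 to 0.29 (median -0.007), with 8 over 0.1. Replicate numbers thus showed no general pairing of the libraries. This check cannot decide whether some groups shared a batch, since the labels do not say how replicates were collected. The replicate block left the other counts within 1.5 times. With 2 libraries a group and unknown absolute depth, differences within a stage have little precision.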

Other observations

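Further down the order of likeness to Zm00001d011063 came a ferredoxin-sulfite reductase (Zm00001d038625), an enzyme that reduces sulfite to sulfide in sulfur assimilation, at rank 8 with a Pearson correlation of 0.883 over 18 libraries. It was chosen after its values were seen. It ran from 29.3 to 119.89 FPKM and held 34.3 FPKM in low tasseling replicate 1 and 68.9 FPKM in replicate 2. A thioredoxin H-type gene (Zm00001d035390), of a family of disulfide reductases, took rank 7 at 0.883 and was also chosen after its values were seen; it ran from 0 to 75.2 FPKM.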
